A study of Mus musculus with 172 samples.

Results

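The genes described here are 46 regulators of cell division, chosen by their symbols from the 49671 genes of the count files. The G1/S set holds 26 of them, which drive or restrain the passage from G1 into DNA replication. The G2/M set holds 20, which act in mitosis or drive or restrain entry into it. They were followed in single cells of the inner cell mass (ICM) of mouse blastocysts with or without OCT4, the transcription factor encoded by Pou5f1. The question was which cyclins each lineage used, and whether cells without OCT4 carried fewer transcripts of division genes.

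The embryos came from matings between Pou5f1 heterozygotes on a mixed background. The outer trophectoderm (TE) was removed by immunosurgery and used for genotyping, and each ICM cell was sequenced with Smart-seq2, which reads full-length transcripts. WT embryos have both Pou5f1 alleles, HET embryos 1 and MUT embryos none, and WT and HET were treated as 1 control group (WT/HET). At E3.5, the mid blastocyst, there were 58 WT/HET cells from 7 embryos (5 WT and 2 HET) and 29 MUT cells from 4 embryos. At E4.5, the late blastocyst, the 66 WT/HET cells of 6 embryos (2 WT and 4 HET) were labelled by the study, from the same transcriptomes, as epiblast (EPI, 37 cells) or primitive endoderm (PrE, 29 cells), and there were 19 MUT cells from 2 embryos. The names of the deposited count files put all 85 E4.5 cells on plate 1 and all 87 E3.5 cells on plate 2, so stage and plate cannot be told apart. The embryo was the replicate, and counts were summed over its cells, for EPI and PrE separately. In such a sum, fewer expressing cells and less RNA per cell cannot be told apart.

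A cell had 363819 to 4644070 counts and an embryo sum 2736296 to 17453036, the lowest being the PrE of embryo 6, which holds 2 cells. The read pairs carry no molecular identifiers, so intervals and floors cover counting error only. Pou5f1 lay at 199 to 435 CPM (counts scaled to the size of the library) in E3.5 WT/HET embryos and 2.74 to 5.93 CPM in E3.5 MUT embryos, and the E4.5 MUT cells had 0 counts of it. The summed level of 9 EPI markers was 2230 to 3982 CPM in EPI and 173 to 353 CPM in PrE, and that of 10 PrE markers 3014 to 7007 CPM in PrE and 5.76 to 74.2 CPM in EPI, as the labels say. At E3.5 the EPI markers summed to 738 to 1608 CPM in WT/HET and 433 to 1056 CPM in MUT embryos. The PrE markers summed to 99.4 to 317 CPM in E3.5 WT/HET and 382 to 608 CPM in E3.5 MUT embryos. In E4.5 MUT embryos the EPI markers were at 529 to 1365 CPM (Gdf3 at 0), below every EPI sum and above every PrE sum. The PrE markers were at 557 to 804 CPM there (Sox7 and Foxa2 at 0), below every PrE sum and above every EPI sum. All 11 TE markers were detected there, with a summed level of 3882 to 5068 CPM, against 59.2 to 168 CPM in EPI, 136 to 496 CPM in PrE, 245 to 872 CPM in E3.5 WT/HET and 697 to 1385 CPM in E3.5 MUT embryos. The part of these TE transcripts in the results at E4.5 was not tested.

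Cyclins are regulatory subunits that turn on cyclin-dependent kinases (CDKs) and are made and destroyed once per cycle. D cyclins with CDK4 or CDK6 and E cyclins with CDK2 release E2F factors from the retinoblastoma protein family, and E2F then raises the genes of replication. Cyclin A and the B cyclins with CDK1 drive mitosis, and their genes are repressed in quiescent cells and raised in G2. Mouse embryonic stem cells in culture divide fast, with a short G1 and strong cyclin E activity.

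Of the 46 members, 40 passed the test in at least 1 of 8 comparisons, and 5 were tested and did not pass in any (Cdt1, Cdc25b, Wee1, Bub1b and Kif20a). Rb1, with 0 to 55 counts per class, was under the filter on low counts in all. The same share over all genes was not counted, so the 40 is an account of the members only. In the comparisons of EPI and PrE with E3.5 WT/HET alone, 31.9% and 31.7% of all genes passed. Passing means an adjusted p under 0.05 in the quasi-likelihood test of edgeR, adjusted by the Benjamini-Hochberg method over all genes tested. Log2 fold changes are given with their standard error (SE).

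In E3.5 MUT embryos the members moved little as a group. Of 43 members tested, 3 were higher and 2 lower than in WT/HET embryos, beside 3.20% and 2.98% of all genes (6.18% in either direction), and the median log2 fold change of the members was 0.02 (all genes, -0.02). At E4.5 the picture was one-sided. Against EPI, 10 of 45 members were lower in MUT embryos and 0 higher, beside 2.62% lower and 2.30% higher among all genes (4.92% in either direction). The median was -0.92 (all genes, -0.03) and 40 of the 45 fitted values lay below 0. Against PrE, 5 of 44 members were lower and 0 higher, beside 2.07% lower and 1.74% higher among all genes (3.81% in either direction). The median was -0.75 (all genes, 0.05), with -1.55 for the G2/M set and -0.16 for the G1/S set. No member of either set was higher against EPI at an unadjusted p under 0.05 (0 genes), by DESeq2 (0) or with cells weighted equally (0), and against PrE 2 G1/S members were higher at an unadjusted p alone. Both comparisons use the same 2 MUT embryos, and EPI and PrE come from the same 6 embryos, so they are not independent of each other. Without MUT embryo 8 the count against EPI fell from 10 to 0 and that against PrE from 5 to 1. Without MUT embryo 3 they were 3 and 4, and 0 and 0 when only the 2 WT embryos served as E4.5 controls. With 1 of the 8 embryos left out, the calls against EPI of Ccnb2, Ccne1, Mcm2, Mcm3 and Pcna held in 6 or 7 of 8 fits, and those of Top2a, Aurkb, Birc5, Ccna2 and Ccnb1 in 1 to 3. The fits that lost Ccne1, Mcm2, Mcm3 and Pcna were those without MUT embryo 3 or MUT embryo 8, which leave 1 MUT embryo. Ccnb2 was lost without MUT embryo 8.

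The number of members whose groups did not overlap followed the same sides. Both MUT embryos lay below all 6 EPI sums for 20 members, 10 from each set, where 9.36% of all genes did so. They lay below all 6 PrE sums for 17 members, 5 G1/S and 12 G2/M, where 7.87% of all genes did so. Above all PrE sums lay 2 members, Ccnd1 and Mcm6 (14.2% of all genes), and above all EPI sums 0 (14.7% of all genes). At E3.5 the 4 MUT embryos lay above all WT/HET embryos for 2 members (3.47% of all genes) and below them for 2 (4.02%). EPI lay above PrE without overlap for 6 members (4.31% of all genes) and below for 1, Ccnd2 (4.73%).

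**Figure D1:**
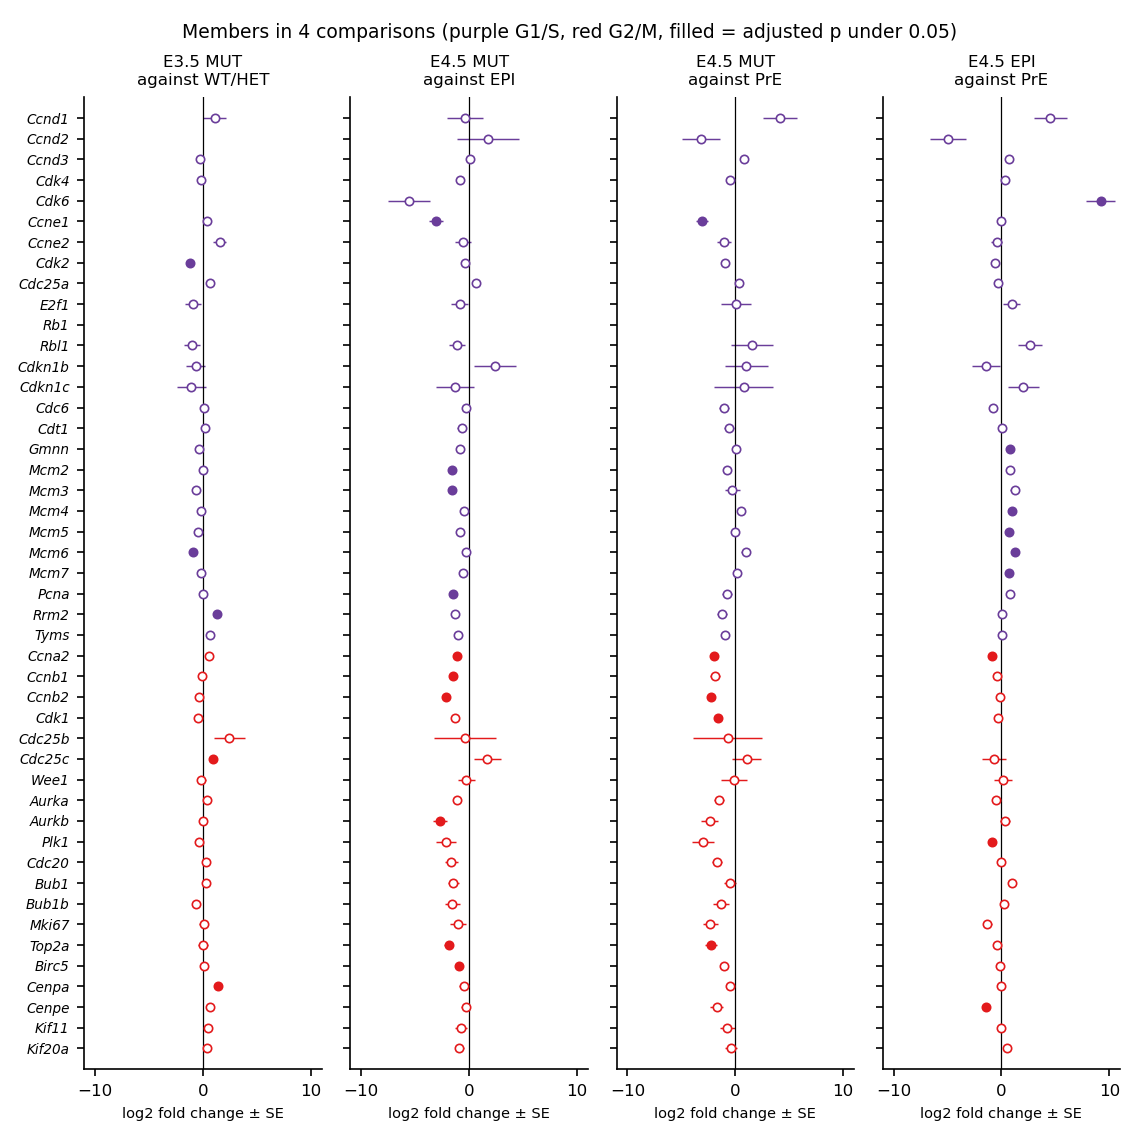
Log2 fold change and SE (x axis) of each member (y axis, by role) in 4 comparisons of embryo sums, G1/S members in purple and G2/M members in red, filled where the adjusted p is under 0.05. In the E4.5 MUT panels 10 and 5 points are filled, all left of 0, and in the EPI against PrE panel the 6 filled purple points lie right of 0 and the 3 filled red points left.

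The promoters of the members were read for known cell cycle elements. RefSeq promoters (GRCm38.p6, 250 bases before to 50 after the gene start) were matched for 34 of the 46 members. Missing were Aurkb, Ccna2, Ccnd1, Ccnd2, Ccne2, Cdc25c, Cdkn1c, Gmnn, Kif20a, Mcm4, Rb1 and Wee1. The cell cycle homology region (CHR, searched as TTTGAA on both strands), an element known from G2/M promoters, was in 10 of 15 G2/M members, 1 of 19 G1/S members (Mcm2) and 20.2% of all genes. A CCAAT box (CCAAT on both strands) was in 14 of 15 G2/M members, 11 of 19 G1/S members and 41.1% of all genes. Any of 4 E2F words (TTTCCCGC, TTTCGCGC, TTTGGCGC and TTTGCCGC, both strands, which can overlap each other) was in 9 of 19 G1/S members, 1 of 15 G2/M members (Cdk1) and 2.6% of all genes. A match is a description of the letters and not of binding. Below are 120 bases before to 20 after the start for 4 mitotic members whose E4.5 MUT values lay below every EPI sum, with CHR and CCAAT matches (ATTGG on the other strand) in capitals. Ccnb1 has no TTTGAA in its window.
Ccnb1 promoter, chr13:100786467-100786606, minus strand: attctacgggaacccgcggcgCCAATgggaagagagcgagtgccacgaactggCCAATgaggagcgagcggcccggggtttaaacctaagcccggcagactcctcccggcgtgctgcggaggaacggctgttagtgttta
Ccnb2 promoter, chr9:70421535-70421674, minus strand: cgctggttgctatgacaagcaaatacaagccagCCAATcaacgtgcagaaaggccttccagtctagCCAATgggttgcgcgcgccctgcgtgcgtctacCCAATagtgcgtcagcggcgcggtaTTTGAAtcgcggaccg
Cdk1 promoter, chr10:69352893-69353032, minus strand: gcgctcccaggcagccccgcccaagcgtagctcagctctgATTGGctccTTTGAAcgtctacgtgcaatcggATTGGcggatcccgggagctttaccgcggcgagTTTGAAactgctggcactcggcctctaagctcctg
Cdc20 promoter, chr4:118437324-118437463, minus strand: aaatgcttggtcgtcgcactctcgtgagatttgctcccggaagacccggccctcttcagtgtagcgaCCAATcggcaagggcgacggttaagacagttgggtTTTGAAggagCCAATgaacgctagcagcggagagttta

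For the G1/S set the same stretch is shown for Mcm6 and Cdc25a, which rose from E3.5 to E4.5 in MUT embryos, and for Ccne1, which was lower there than in EPI and PrE. E2F words on either strand are in capitals, and in Mcm6 the first run joins a pair of overlapping words. Ccne1 holds none of the 4 words in this stretch, which says only that these letters are not there. The words were also in the searched promoters of, among others, Mcm3, Mcm5 and Mcm7, which lay below every EPI sum in E4.5 MUT embryos.
Mcm6 promoter, chr1:128359686-128359825, minus strand: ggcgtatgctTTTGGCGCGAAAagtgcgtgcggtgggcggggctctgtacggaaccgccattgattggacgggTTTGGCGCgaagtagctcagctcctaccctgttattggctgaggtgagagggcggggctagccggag
Cdc25a promoter, chr9:109875459-109875598, plus strand: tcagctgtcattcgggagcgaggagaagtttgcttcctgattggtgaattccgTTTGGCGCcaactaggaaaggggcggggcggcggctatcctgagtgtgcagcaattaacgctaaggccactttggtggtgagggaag
Ccne1 promoter, chr7:38107471-38107610, minus strand: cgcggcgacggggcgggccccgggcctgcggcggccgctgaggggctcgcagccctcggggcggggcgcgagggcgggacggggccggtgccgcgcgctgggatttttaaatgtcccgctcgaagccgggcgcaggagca

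The 3 D cyclins link growth signals to the cycle. Ccnd3 was the most abundant of them per transcript length in each class, at a mean of 28.2 FPKM (CPM per kilobase of transcript) in E3.5 WT/HET, 23.3 in E3.5 MUT, 39.6 in EPI, 23.7 in PrE and 41.5 FPKM in E4.5 MUT embryos. It rose from E3.5 to EPI by 0.51 on the log2 scale (SE 0.17, adjusted p = 0.0302), a call that held in 8 of 13 fits without 1 embryo. Ccnd1 was near 0 at E3.5, with at most 1.27 CPM in WT/HET and 3.33 CPM in MUT embryos. In EPI it was 1.20, 72.3, 24.4, 54.3, 0 and 43.3 CPM in embryos 1, 2, 4, 5, 6 and 7. It was thus present in 4 of the 6 EPI sums and close to absent from embryos 1 and 6. PrE sums lay between 0 and 5.54 CPM (median 0.610), and the MUT embryos at 34.6 and 15.5 CPM, above all PrE sums and within the EPI range. Ccnd1 rose from E3.5 WT/HET to EPI by 5.50 on the log2 scale (SE 1.18, adjusted p = 0.00225). Its difference between EPI and PrE, 4.54, missed the threshold (adjusted p = 0.0834), as did that between MUT and PrE (4.14, adjusted p = 0.228).

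Ccnd2 had the opposite lineage. The 6 PrE sums lay at 8.64 to 48.6 CPM (median 29.4), whereas 5 EPI sums were at 0 and that of embryo 5 at 5.09 CPM, so the lineages did not overlap. MUT embryo 3 was at 0 and MUT embryo 8 at 6.04 CPM. None of the 58 E3.5 WT/HET cells had a count (0 against 1343 counts in PrE, at least 752-fold higher in PrE). The log2 difference of EPI to PrE, -4.93, missed the threshold (adjusted p = 0.0828) and passed with embryo as a block, at -9.63 (adjusted p = 0.0323). Per cell, thinned to 300000 counts and detected from 10 CPM, Ccnd1 was in 21 of 37 EPI, 1 of 29 PrE and 7 of 19 MUT cells, and Ccnd2 in 1 EPI, 14 PrE and 2 MUT cells. At E3.5 Ccnd2 was in 0 of 58 WT/HET cells, which allows a share of up to 5.17% if cells are taken as independent. Cells share embryos, so such a limit may be too narrow.

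Cdk6, a kinase partner of the D cyclins, was on the EPI side. It ranged from 2.88 to 53.9 CPM in EPI (median 12.4), with 1337 counts in all, and PrE held 1 count, a ratio of 1012 (95% counting interval 181 to 40010). The EPI and PrE sums did not overlap, and the difference passed the test (adjusted p = 0.000422) and held without each embryo in turn. MUT embryos had 0.758 and 0 CPM, below all EPI sums, but that difference did not pass (adjusted p = 0.140). Cdk6 was detected in 14 of 37 EPI cells, 0 of 29 PrE cells (up to 10.3% allowed) and 0 of 19 MUT cells (up to 15.8% allowed). These limits also take cells as independent. From E3.5 WT/HET to EPI Cdk6 rose by 5.14 on the log2 scale (adjusted p = 0.00723). Cdk4, the other partner, was abundant in each class, with 54.1 to 156 FPKM. Cdk4 rose from E3.5 WT/HET (136 to 259 CPM, median 216) to EPI (432 to 609 CPM, median 490) by 1.32 on the log2 scale (SE 0.15, adjusted p = 1.05e-05) and to PrE by 0.93 (SE 0.17, adjusted p = 0.000708). The MUT embryos, at 235 and 339 CPM, lay below all EPI sums, with a log2 difference of -0.85 (adjusted p = 0.0692).

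**Figure D2:**
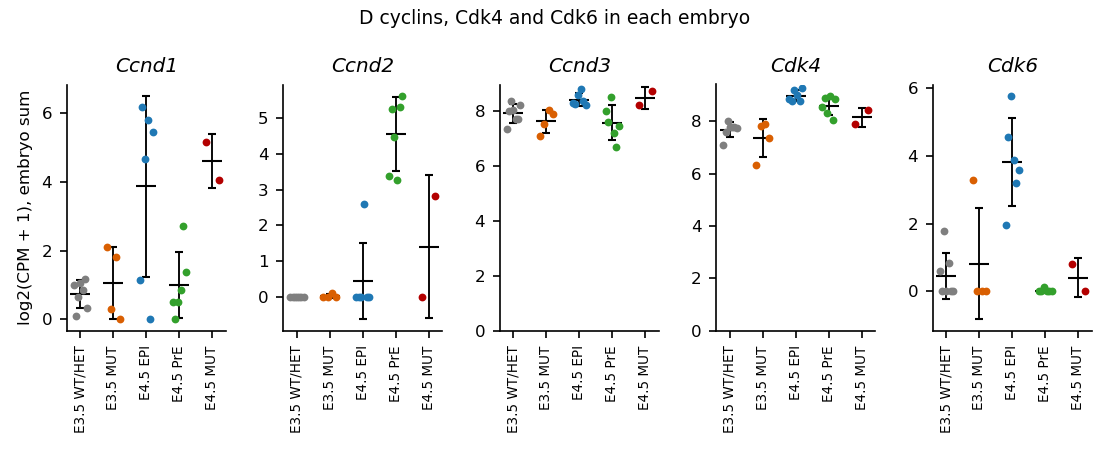
Level of the 3 D cyclins, Cdk4 and Cdk6 as log2(CPM + 1) of each embryo sum (points), with mean and SD (bars), by class. Ccnd2 is high in PrE alone among the WT/HET classes, Cdk6 in EPI, and Ccnd1 in 4 of 6 EPI sums and both E4.5 MUT embryos.

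Cyclin E1 set the E4.5 MUT embryos apart from both lineages. Ccne1 was at 69.3 to 380 CPM in EPI (median 243) and 108 to 347 CPM in PrE (median 279), and at 38.5 and 20.9 CPM in the MUT embryos. Both MUT values lay below every EPI and PrE sum. The log2 fold change was -3.05 against EPI (SE 0.63, adjusted p = 0.0254) and -3.06 against PrE (SE 0.56, adjusted p = 0.0166). Both calls were lost when MUT embryo 3 or MUT embryo 8 was left out, and held without any other single embryo. In the WT/HET classes Ccne1 rose with stage, from 32.8 to 99.3 CPM (median 44.7) at E3.5, by 2.21 on the log2 scale to EPI (adjusted p = 0.000219) and by 2.22 to PrE (adjusted p = 9.69e-05). The E3.5 MUT embryos, at 97.2, 21.1, 94.4 and 59.6 CPM, overlapped their controls. Ccne1 was detected in 7 of 19 E4.5 MUT cells, 32 of 37 EPI cells and 26 of 29 PrE cells.

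Ccne2, the second E cyclin, was lower per length (2.43 to 9.04 FPKM over the classes). It was 14.3 and 16.7 CPM in E4.5 MUT embryos, 11.8 to 43.5 CPM in EPI and 21.6 to 53.1 CPM in PrE, and passed in the rise from E3.5 WT/HET to EPI (1.45, adjusted p = 0.0472) and to PrE (1.88, adjusted p = 0.00836). The call in EPI held in 3 of 13 fits without 1 embryo and in 3 of 6 other settings (highest adjusted p = 0.569). Cdk2, the kinase of cyclin E, was the G1/S kinase that fell at E3.5. It was 33.7, 69.9, 58.0 and 38.2 CPM in the MUT embryos and 72.7 to 161 CPM in WT/HET embryos (median 125), with no overlap and a log2 fold change of -1.21 (SE 0.26, adjusted p = 0.0165). With the 5 WT embryos as the only controls the adjusted p was 0.0583. At E4.5 Cdk2 was 132 and 144 CPM in MUT embryos, inside the EPI range of 90.6 to 264 CPM and below the PrE range of 226 to 330 CPM (adjusted p = 0.0549). Cdk2 rose from E3.5 to PrE by 1.21 (SE 0.17, adjusted p = 9.33e-05).

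Cdc25a, the phosphatase that activates CDK2, did not share the low level of Ccne1. It was 188 and 94.3 CPM in E4.5 MUT embryos, against 55.4 to 114 CPM in EPI and 60.2 to 162 CPM in PrE. It rose with stage in each class, by 1.73 to EPI, 2.05 to PrE and 1.67 in MUT embryos (adjusted p = 0.000229, 8.41e-05 and 0.0427). The last of these calls was lost when any 1 of the 6 embryos was left out. E2f1, an activating E2F, rose from 0.337 to 9.88 CPM at E3.5 to 16.6 to 60.7 CPM in EPI (log2 2.61, SE 0.60, adjusted p = 0.00342), and Rbl1, the pocket protein p107, by 1.15 (adjusted p = 0.0229). The MUT embryos had 27.3 and 9.59 CPM of E2f1 and 6.0 and 17.6 CPM of Rbl1. The CDK inhibitors among the members, Cdkn1b (p27) and Cdkn1c (p57), which hold cells in G1, were low throughout. Cdkn1b was 18.1 and 0.242 CPM in E4.5 MUT embryos, 0 to 5.09 CPM in EPI and 0 to 12.3 CPM in PrE, and fell from E3.5 WT/HET to EPI by 2.68 on the log2 scale (adjusted p = 0.0398), a call that held in 4 of 13 fits without 1 embryo and in 3 of 6 other settings. Cdkn1c was 9.56 and 0 CPM in MUT embryos and 2.09 to 21.9 CPM in EPI, with a rise of 3.02 from E3.5 to EPI (adjusted p = 0.0240). Neither inhibitor passed in a comparison of MUT embryos with controls. Outside the members, the CDK inhibitor gene Cdkn2c passed as lower in EPI than in E3.5 WT/HET embryos (log2 -9.02, SE 1.04, adjusted p = 0.000112).

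Of the 9 licensing genes, which place the MCM helicase (Mcm2 to Mcm7) on replication origins or limit that step, 5 passed as higher in EPI than in PrE. Against PrE, 6 G1/S members were higher in EPI and 0 lower, beside 4.61% higher and 5.20% lower among all genes (9.81% in either direction), and 5 of the 6 were Mcm4, Mcm5, Mcm6, Mcm7 and Gmnn, which encodes geminin, the brake on Cdt1. Beside that 0, 3 members were lower at an unadjusted p under 0.05, 1 by DESeq2 and 2 with cells weighted equally. Mcm6 was 568 to 950 CPM in EPI (median 769) and 114 to 498 CPM in PrE (median 312). No PrE sum reached the EPI range, and the log2 fold change was 1.24 (SE 0.27, adjusted p = 0.00890). Mcm7 differed by 0.73 (SE 0.14, adjusted p = 0.00323) and Mcm4 by 0.97 (SE 0.22, adjusted p = 0.00952), also without overlap. The calls of Mcm5 (0.75, adjusted p = 0.0330) and Gmnn (0.82, adjusted p = 0.0343) came with overlapping groups and held in 1 and 2 of the 6 fits without 1 embryo, and Gmnn missed the threshold with embryo as a block (adjusted p = 0.0538). Mcm2 and Mcm3 differed by 0.75 and 1.24 and did not pass (adjusted p = 0.0772 and 0.0911). The PrE of embryo 6, the sum of 2 cells, was the lowest of the 6 PrE sums for Mcm2 to Mcm6 and Gmnn, and the calls of Mcm5, Gmnn and Cenpe were lost without embryo 6. The members called were then 5 higher and 4 lower in place of 6 and 3. Without embryo 2 or embryo 7 the count was 5, and with the 2 WT embryos alone 0.

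In E4.5 MUT embryos Mcm2, Mcm3, Mcm5 and Mcm7 lay below all EPI sums and overlapped the PrE sums. Mcm2 was 134 and 154 CPM and Mcm3 153 and 147 CPM, against 268 to 564 and 340 to 594 CPM in EPI. Mcm5 was 181 and 251 CPM and Mcm7 286 and 230 CPM, against 303 to 472 and 314 to 465 CPM in EPI. The log2 fold changes of Mcm2 and Mcm3 against EPI were -1.56 (SE 0.33, adjusted p = 0.0259) and -1.55 (SE 0.27, adjusted p = 0.0115), and Mcm5 and Mcm7 did not pass. Mcm4, at 341 and 189 CPM, overlapped EPI (287 to 400 CPM). Mcm6, at 652 and 601 CPM, was within the EPI range and above all PrE sums, with fold changes of -0.31 and 0.96 that did not pass (adjusted p = 0.453 and 0.291). At E3.5 Mcm6 was the MCM gene that fell without OCT4. It was 114, 115, 137 and 143 CPM in MUT embryos and 163 to 330 CPM in WT/HET embryos (median 273), a log2 fold change of -0.96 (SE 0.19, adjusted p = 0.0123) with no overlap. It rose from E3.5 to E4.5 in MUT embryos by 2.24 (SE 0.25, adjusted p = 0.00997) and in WT/HET embryos to EPI by 1.62 (SE 0.16, adjusted p = 4.00e-06). From E3.5 to EPI Mcm2, Mcm3, Mcm4 and Mcm7 also rose (0.99, 1.66, 0.46 and 0.70), and Cdc6, which loads the helicase, rose to EPI by 0.96 and to PrE by 1.70 (adjusted p = 0.0170 and 0.000597). Gmnn fell from E3.5 to PrE by 0.56 on the log2 scale (adjusted p = 0.0203). Cdt1, the other loader, was 59.0 to 240 CPM over all embryos at both stages.

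Pcna, the sliding clamp of DNA polymerase, was low in E4.5 MUT embryos, at 178 and 204 CPM against 414 to 722 CPM in EPI (log2 -1.54, SE 0.27, adjusted p = 0.0124). The PrE sums, 104 to 443 CPM, spanned the MUT values. Pcna rose from E3.5 to EPI by 1.24 (SE 0.16, adjusted p = 3.76e-05). The genes of nucleotide supply moved with stage in MUT embryos. Rrm2, the regulated subunit of ribonucleotide reductase, was 1178, 830, 993 and 1549 CPM in E3.5 MUT embryos against 320 to 737 CPM in WT/HET embryos (median 468), all higher, by 1.28 on the log2 scale (SE 0.24, adjusted p = 0.00865). At E4.5 it was 182 and 223 CPM in MUT embryos, below all EPI sums (310 to 841 CPM), with a fold change of -1.30 that did not pass (adjusted p = 0.0760). Tyms, thymidylate synthase, was 444, 274, 279 and 263 CPM in E3.5 MUT embryos and 92.0 and 114 CPM at E4.5. Both fell from E3.5 to E4.5 in MUT embryos, with log2 fold changes of -2.56 (SE 0.37, adjusted p = 0.0147) and -1.68 (SE 0.34, adjusted p = 0.0346). Among members from E3.5 to E4.5 in MUT embryos, 2 passed as higher and 6 as lower, beside 3.08% and 3.69% of all genes. Without MUT embryo 3 the 8 calls became 0 and without MUT embryo 8 they became 1.

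The mitotic cyclins were low in both E4.5 MUT embryos. Ccnb2 was 65.4 and 36.2 CPM there, 120 to 266 CPM in EPI (median 231) and 195 to 281 CPM in PrE (median 235). Both MUT embryos were below all of them, with log2 fold changes of -2.14 (SE 0.39, adjusted p = 0.0153) and -2.21 (SE 0.34, adjusted p = 0.00719). Ccna2 was 80.9 and 113 CPM, below the 165 to 251 CPM of EPI and the 245 to 486 CPM of PrE. It changed by -1.12 (SE 0.26, adjusted p = 0.0382) against EPI and -1.94 (SE 0.31, adjusted p = 0.00854) against PrE. Ccnb1 was 318 and 104 CPM, below 531 to 663 CPM in EPI and 457 to 1055 CPM in PrE, with -1.51 (SE 0.37, adjusted p = 0.0478) against EPI and -1.85 (adjusted p = 0.0547) against PrE. The call of Ccnb1 against EPI held in 1 of 8 fits without 1 embryo, and that of Ccnb2 in 7 of 8 against each lineage. Cdk1, the mitotic kinase, was 122 and 99.7 CPM in MUT embryos and below both lineages. It passed against PrE (-1.57, SE 0.31, adjusted p = 0.0226) and not against EPI (-1.32, adjusted p = 0.0687).

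**Figure D3:**
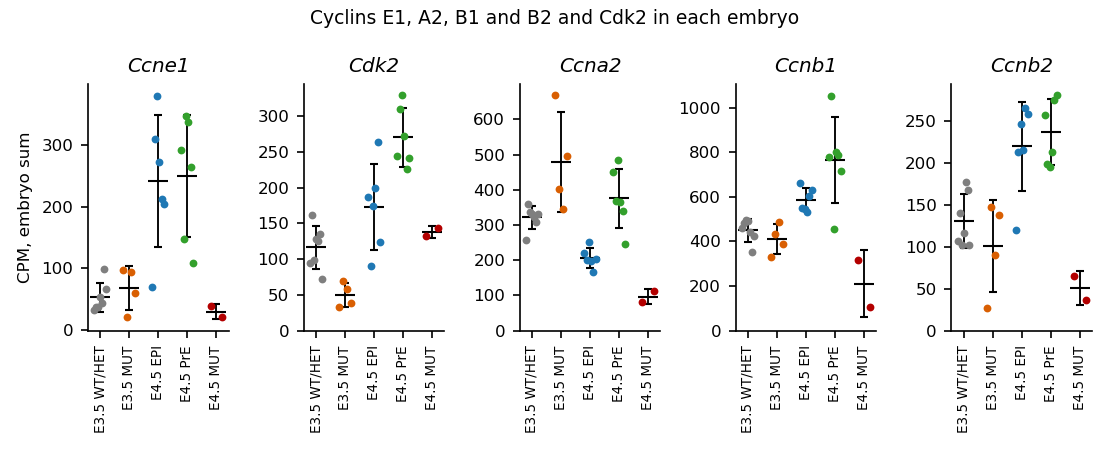
CPM of each embryo sum (points), with mean and SD (bars), for Ccne1, Cdk2, Ccna2, Ccnb1 and Ccnb2 by class, on axes that start at 0. The 2 E4.5 MUT embryos lie below every EPI and PrE sum for the 4 cyclins, and the 4 E3.5 MUT embryos below every WT/HET embryo for Cdk2.

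At E3.5 none of these cyclins passed the test without OCT4. Ccna2 was 670, 403, 346 and 496 CPM in MUT embryos against 257 to 360 CPM in WT/HET embryos, a log2 fold change of 0.60 that missed the threshold (adjusted p = 0.0602), and Ccnb1 and Ccnb2 differed by -0.11 and -0.36, neither past the threshold. Between the lineages Ccna2 was lower in EPI by 0.86 on the log2 scale (SE 0.17, adjusted p = 0.00408). With stage, Ccnb1 rose to EPI and PrE by 0.41 and 0.76 and Ccnb2 by 0.78 and 0.85 (adjusted p = 0.00473, 0.00144, 0.00853 and 0.00147), whereas Ccna2 fell to EPI by 0.62 on the log2 scale (adjusted p = 0.000844). In MUT embryos Ccna2 fell from E3.5 to E4.5 by 2.37 (SE 0.38, adjusted p = 0.0191). Of the switch that controls CDK1, the phosphatase gene Cdc25c was higher in E3.5 MUT embryos (90.0, 57.1, 62.3 and 32.8 CPM against 25.3 to 42.4 CPM) by 0.98 (SE 0.26, adjusted p = 0.0469). Its groups overlapped, and the call held in 2 of 11 fits without 1 embryo. Cdc25b, at 0 to 31.3 CPM, and the inhibitory kinase gene Wee1, at 3.91 to 136 CPM, did not pass in any comparison.

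The mitotic kinase genes Aurkb, Plk1 and Aurka lay below every EPI and PrE sum in both E4.5 MUT embryos. Aurkb, the kinase of the chromosomal passenger complex, was 8.63 and 25.1 CPM there and 54.4 to 206 CPM in EPI (log2 -2.73, SE 0.66, adjusted p = 0.0455). Plk1, which drives mitotic entry, was 46.2 and 1.29 CPM, against 83.2 to 132 CPM in EPI and 117 to 298 CPM in PrE, but the gap between the 2 MUT embryos was wide and the fold changes of -2.15 and -3.01 did not pass (adjusted p = 0.267 and 0.161). Aurka, the spindle pole kinase, was 146 and 93.8 CPM, below both lineages, at -1.11 (adjusted p = 0.0581) and -1.52 (adjusted p = 0.0980). From E3.5 to E4.5 in MUT embryos Aurka fell by 1.99 on the log2 scale (SE 0.35, adjusted p = 0.0236), which held in 2 of 6 fits without 1 embryo. From E3.5 WT/HET to EPI Aurkb rose by 1.07 (adjusted p = 0.00631) and Aurka fell by 0.49 on the log2 scale (adjusted p = 0.0155). Between the lineages Plk1 was lower in EPI, by 0.90 on the log2 scale (adjusted p = 0.0198), a call that missed with embryo as a block (adjusted p = 0.0699) and held in 3 of 6 fits without 1 embryo. Of the G2/M members 3 were lower in EPI than in PrE (Ccna2, Plk1 and Cenpe) and 0 higher, with 1 higher at an unadjusted p under 0.05 and 0 by DESeq2.

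In the spindle checkpoint group, Cdc20, which activates the anaphase-promoting complex, was 338 and 98.0 CPM in E4.5 MUT embryos and 364 to 1120 CPM in EPI, with a fold change of -1.66 (adjusted p = 0.149). It rose from E3.5 to EPI and PrE by 1.04 and 1.07 (adjusted p = 0.00558 and 0.000203). The checkpoint kinase gene Bub1 fell from E3.5 to PrE by 1.43 on the log2 scale (SE 0.30, adjusted p = 0.00196), and Bub1b was 46.9 and 8.38 CPM in MUT embryos against 34.1 to 113 CPM in EPI. Among the chromosome and spindle genes, Top2a, the topoisomerase that untangles chromosomes, was 78.5 and 47.1 CPM in E4.5 MUT embryos, below 138 to 321 CPM in EPI (-1.89, SE 0.42, adjusted p = 0.0328) and 102 to 408 CPM in PrE (-2.25, SE 0.51, adjusted p = 0.0441). The call of Top2a against PrE held in 1 of 8 fits without 1 embryo (highest adjusted p = 0.267). Birc5, survivin, was 158 and 169 CPM against 263 to 337 CPM in EPI (-0.92, SE 0.20, adjusted p = 0.0328), and fell from E3.5 to E4.5 in MUT embryos by 1.26 on the log2 scale (adjusted p = 0.0439), which held in 1 of 6 fits without 1 embryo. Mki67, the proliferation antigen Ki-67, was 11.8 and 42.3 CPM, below all PrE sums (59.6 to 267 CPM) and overlapping EPI (20.5 to 108 CPM). It did not pass against either, and it rose from E3.5 to PrE by 1.00 (adjusted p = 0.0375), which held in 6 of 13 fits without 1 embryo.

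Cenpa, the histone that marks centromeres, stood out at E3.5. It was 461, 406, 405 and 316 CPM in MUT embryos and 108 to 216 CPM in WT/HET embryos (median 152), all MUT above all controls, with a log2 fold change of 1.37 (SE 0.19, adjusted p = 0.00221) that held without each embryo. At E4.5 it was 225 and 99.2 CPM in MUT embryos, within or below the 129 to 288 CPM of EPI, and it rose from E3.5 to PrE in WT/HET embryos by 0.55 (adjusted p = 0.0462), which held in 6 of 13 fits without 1 embryo and in 2 of 6 other settings. Cenpe, a centromere motor, was 44.6 to 111 CPM in EPI and 79.9 to 377 CPM in PrE, lower in EPI by 1.45 on the log2 scale (SE 0.36, adjusted p = 0.0194), and fell from E3.5 to EPI by 1.48 (adjusted p = 0.000216). In MUT embryos it fell with stage from a mean of 322 CPM to 60.1 CPM (adjusted p = 0.0353), a call lost when any 1 embryo was left out. The spindle motor gene Kif11 fell from E3.5 to EPI by 1.16 and to PrE by 1.14 (adjusted p = 0.00196 and 0.0201). Kif20a, a motor of cytokinesis, was 121 and 57.1 CPM in MUT embryos and 43.6 to 223 CPM in the lineages. With stage in WT/HET embryos 26 of 44 members changed in EPI (21 higher, 5 lower, beside 15.5% and 16.4% of all genes) and 15 of 42 in PrE (12 higher, 3 lower, beside 14.8% and 16.9%). The split between higher and lower moved with the setting. With cells weighted equally it was 13 higher and 9 lower in EPI and 11 and 9 in PrE, and with WT embryos alone 12 and 7 in EPI and 8 and 7 in PrE. For the G2/M members in EPI it went from 4 higher and 4 lower to 2 and 8 with cells weighted equally. Of the calls in EPI, 8 were lost with cells weighted equally (Aurkb, Ccnb2, Ccnd3, Ccne2, Cdc6, Mcm4, Mcm7 and Rbl1) and 12 with WT embryos alone, among them again Aurkb, Ccnd3, Ccne2, Cdc6, Mcm4 and Rbl1. Without overlap, EPI lay above E3.5 for 10 members (7.46% of all genes) and below for 4 (12.3%), and PrE above for 6 (7.83%) and below for 1 (12.6%).

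The members were next read cell by cell, as the mean log2(CPM + 1) over 20 G2/M genes and over 15 S-phase genes. The mean G2/M level per cell was 3.27 and 3.34 in the 2 E4.5 MUT embryos. It was 5.80 to 6.70 in EPI, 5.76 to 7.03 in PrE, 6.59 to 7.08 in E3.5 WT/HET and 5.86 to 7.07 in E3.5 MUT embryos, so the 2 late mutants lay below every other embryo. The S level of the late mutants was also below every other embryo but nearer to them, at 5.30 and 5.79 in E4.5 MUT embryos, 6.99 to 7.54 in EPI, 5.97 to 7.52 in PrE, 5.86 to 6.76 in E3.5 WT/HET and 6.10 to 6.49 in E3.5 MUT embryos. At E3.5 the mean S and G2/M levels of MUT differed from WT/HET by -0.07 and -0.13. E3.5 MUT embryo 10, with a G2/M level of 5.86, lay below every WT/HET embryo, and the other E3.5 MUT embryos lay at 6.74 to 7.07. Embryo 10 also had the fewest genes per cell at E3.5, a mean of 7830 against 8787 to 10075 in WT/HET embryos. Over the 29 E3.5 MUT cells, thinned, the G2/M level had a Pearson correlation of 0.779 with the number of genes, given as a description. The part of gene number in the low level was not tested. The difference of MUT to EPI was -2.84 for the G2/M level and -1.75 for the S level, and to PrE -3.11 and -1.14. On another scale, the log2 of the summed FPKM, the 4 differences were -1.98, -1.21, -2.09 and -0.45, and those at E3.5 changed sign, to 0.19 for the S level and 0.009 for the G2/M level.

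**Figure D4:**
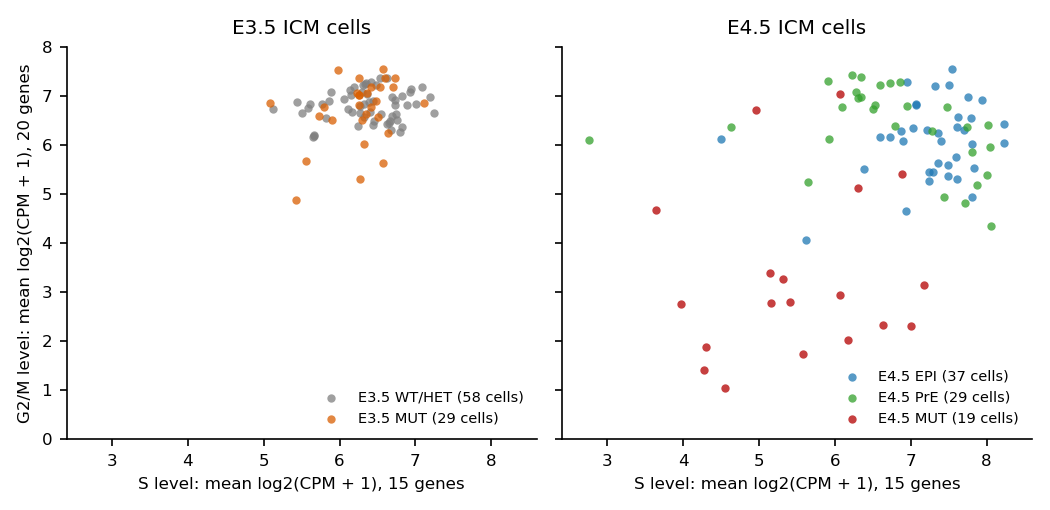
S level (x axis, mean log2(CPM + 1) of 15 genes) and G2/M level (y axis, 20 genes) of each cell at E3.5 (left) and E4.5 (right), coloured by class. Of the 19 E4.5 MUT cells 14 lie below a G2/M level of 4, where no other cell lies, and their S levels run from 3.98 to 7.17. The G2/M level of E3.5 MUT cells runs from 4.87 to 7.55, reaching below that of the WT/HET cells, 6.16 to 7.37.

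The number of G2/M genes found in a cell divided the E4.5 MUT cells. With each cell thinned to 300000 counts and a gene taken as detected from 10 CPM, 14 of 19 MUT cells had at most 10 of the 20 genes, 8 of 11 in embryo 3 (72.7%, exact 95% interval 39 to 94) and 6 of 8 in embryo 8 (75%, 34.9 to 96.8). No other cell did (0 of 153). That allows a share of up to 1.96% if cells are taken as independent. These cells share embryos and come from 4 classes, so the limit may be too narrow. Within 1 gene of the cut of 10 lay 5 of the 19 MUT cells and 1 EPI cell, so the share of MUT cells depends on the cut. At least 15 genes were found in 4 MUT cells, 33 of 37 EPI cells, 25 of 29 PrE cells, 27 of 29 E3.5 MUT cells and all 58 E3.5 WT/HET cells. The 14 cells had 907700 to 2112000 counts, 3303 to 8398 genes and 9 to 15 of the 15 S genes. The median number of all genes at 10 CPM or more was 5066 (MUT), 5456 (EPI) and 5759 (PrE) per cell. TE markers lay at 256 to 14370 CPM in the 14 cells. Across the 19 MUT cells, which come from 2 embryos and share their plate, the G2/M level had a Spearman correlation of -0.53 with the TE marker level, 0.35 with the number of genes and 0.18 with the S level, given as a description.

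**Figure D5:**
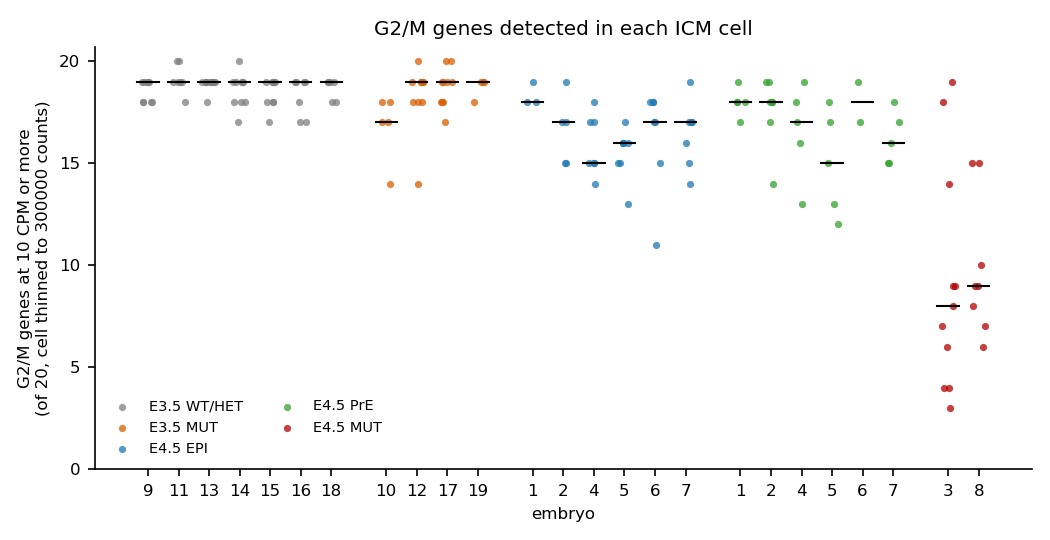
Number of the 20 G2/M genes at 10 CPM or more in each thinned cell (points) by embryo (x axis) and class (colour), with the embryo median (line). Embryos 3 and 8, the E4.5 MUT embryos, have medians of 8 and 9 genes, and the other classes have medians of 15 to 19 genes.

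The share of MUT cells in which a mitotic gene was detected differed from gene to gene. Plk1 was detected in 2 of 19 E4.5 MUT cells, Aurkb in 3, Top2a and Mki67 in 7 each, Cdk1 in 8, Ccnb2 in 9, Aurka in 11, Cdc20 in 12, Ccnb1 in 15 and Birc5 in 18. Of EPI cells, Plk1 was in 27 of 37, Aurkb in 29 and Mki67 in 24, and Top2a, Cdk1, Cdc20, Ccnb1 and Birc5 in all 37. The MCM genes were in 14 to 18 of the 19 MUT cells. With 2 MUT embryos against 6, the smallest p that an exact two-sided permutation test allows is 0.0714, so these shares have no test. In the other classes 6 mitotic genes were tested over embryos (12 exact two-sided permutation tests) and none passed after adjustment. Ccnb1 and Cdc20 were detected in every cell of these classes and Aurka in every E3.5 cell, so those tests could show no difference. The paired tests of EPI and PrE could not pass after adjustment unless E3.5 tests also gave a small p. The absence of calls therefore does not show that the shares are equal. Mki67 had the lowest p between EPI and PrE, with a mean share of 66.1% of EPI and 97.6% of PrE cells per embryo, a difference of -31.5 percentage points in an exact test (p = 0.0312, the smallest that 6 pairs allow, and adjusted p = 0.375). At E3.5 a mean share of 87.5% of MUT cells per embryo had Plk1, and all WT/HET cells had it (exact permutation p = 0.218, adjusted p = 0.873).

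The change from E3.5 to E4.5 was then compared between genotypes in 1 fit, with the EPI and PrE cells of an embryo summed as its ICM. Of 45 members 14 differed, 13 of them with a MUT effect lower at E4.5 than at E3.5 and 1 (Mcm6) higher, beside 2.75% lower and 2.71% higher among all genes (5.46% in either direction). The median over members was -1.22 (all genes, -0.08), with -1.75 for the G2/M and -0.52 for the G1/S set. The 8 G2/M members were Ccna2 (-2.19, SE 0.33, adjusted p = 0.000594), Ccnb1, Ccnb2, Aurka, Aurkb, Cdc20, Birc5 and Cenpa, and 0 G2/M members were higher, also at an unadjusted p under 0.05 (0) and by DESeq2 (0). The 5 lower G1/S members were Ccne1 (-3.46, SE 0.67, adjusted p = 0.00467), Rrm2 (-2.61, SE 0.44, adjusted p = 0.00180), Tyms, Mcm2 and Pcna. Plate cancels in this comparison only where it acts alike on both genotypes. With each of the 19 embryos left out in turn 11 to 16 members passed, and 8 with the HET embryos left out.

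A further 126 cell cycle genes outside the 46 were counted in the same way. At E3.5 4 of 121 tested were higher and 5 lower in MUT embryos, beside 3.20% and 2.98% of all genes, so the pooled share was near the background. The groups within the list differed. Of 53 further G2/M genes tested, 2 were higher and 1 lower. Of the 40 replication genes, 2 were higher and 4 lower, and 29 fitted values lay below 0. Among them Uhrf1, which keeps DNA methylation at replication, was 0 to 12.97 CPM in MUT and 88.7 to 220 CPM in WT/HET embryos, a log2 fold change of -4.95 (SE 0.80, adjusted p = 0.00483), and the replication genes Dut, Rpa1 and Lig1 fell by 1.07, 1.07 and 1.08 on the log2 scale while Pola1 rose by 1.48. In E4.5 MUT embryos 14 of 122 were lower than EPI (2.62% of all genes) and 4 of 122 lower than PrE (2.07%), and all that passed there were lower. Cdca5, a cohesin cofactor, was 17.4 and 25.1 CPM in MUT and 145 to 202 CPM in EPI (-3.02, SE 0.32, adjusted p = 0.000808), and the checkpoint gene Bub3 changed by -2.08 and -2.39 against the lineages. Spc24 and Rpa1 were lower than EPI by 1.63 and 1.97 on the log2 scale, and Tfdp1 and Hmmr lower than PrE by 1.69 and 2.48. Foxm1, the activator of G2/M genes, had 0 counts in the 2 MUT embryos against 1201 in EPI and 1109 in PrE, at least 191-fold and 218-fold lower, and passed against both (adjusted p = 0.0141 and 0.0460). It was also low in controls, with a median of 19.1 CPM in EPI and 10.3 CPM in PrE.

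Between lineages 15 of 118 of these genes were higher in EPI and 2 lower, beside 4.61% and 5.20% of all genes, and 10 of the 15 were among the 40 replication genes. Dut (1.16), Hells (1.41), Mybl2 (1.69), Rpa1 (1.29) and Rfc2 (0.97) had the smallest adjusted p (0.00165 to 0.00326). With stage Cks2, a CDK subunit, fell in all 3 classes, by 1.77 in EPI, 1.61 in PrE and 2.78 in MUT embryos on the log2 scale. In EPI Rfc5, Spc24, Rfc2 and Dut rose by 2.28, 1.51, 1.69 and 1.49, and in PrE Ube2s and Cdc16 rose by 2.90 and 1.73 while Orc2 and Orc4 changed by -2.34 and -2.50. In MUT embryos Lig1 and Gins2 rose by 2.31 and 4.29 with stage, and Nek2 and Kif23 changed by -3.58 and -2.42. In the comparison of stage effects Bub3, Kif23, Cdca5 and Ube2c differed by -1.98, -2.66, -1.84 and -2.21, and 15 of 122 genes passed as lower and 2 as higher, beside 2.75% and 2.71% of all genes.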

How the data were processed

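Single-cell Smart-seq2 libraries of 172 ICM cells were used as deposited. The authors aligned reads with STAR and counted read pairs per gene with htseq-count (build mm10 per the labels, with Ensembl gene annotation per the study's methods), and the deposited values are raw counts for 49671 genes (49326 with a symbol), with 5 summary rows per file that were left out. Of all read pairs 4.72% lay outside genes, 8.654% in more than 1 gene and 32.344% had more than 1 alignment. The last share differed by stage. Its median per cell was 38.81% in E3.5 WT/HET and 41.11% in E3.5 MUT, but 24.93% in EPI, 19.7% in PrE and 21.96% in E4.5 MUT. The median number of genes per cell was 9398, 8890, 6965, 7169 and 6514 in the same order. The part of these differences in the stage comparisons was not tested. Multi-mapped pairs went uncounted, so genes with near-identical copies are uncertain.

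Stage and genotype came from the labels, and the embryo of each cell and its EPI or PrE lineage from the labels together with the supplementary cell list of the study. Counts were summed per embryo and lineage, with no test on cells. Comparisons used the quasi-likelihood test of edgeR (version 4.0.16, run in R 4.3.3 beside limma 3.58.1) with filterByExpr, TMM scaling and Benjamini-Hochberg adjustment over all genes tested, and only the groups compared entered a fit. CPM levels were scaled over all embryo sums together. The steps were tested on simulated data. Shares of cells had exact permutation tests in Python 3.11.15 with scipy 1.17.1. Alternatives were DESeq2 1.42.0, its size factors, no filter, limma-trend with cells weighted equally, leaving out 9 shallow cells, WT embryos as only controls, each embryo left out in turn, and the embryo as a block.

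EPI and PrE sums with the same number come from the same embryo. Their deviations from the group means correlated at 0.0661, 0.0465, 0.00894, 0.0424, 0.0142 and 0.0473 over genes.

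Members and gene lists were chosen with earlier results of these data known. Named with values were all cyclins and CDK inhibitors among the members, and each member that passed in any comparison. Of the further cell cycle genes, those named were up to 5 with the smallest adjusted p in each comparison, and Cdkn2c. Other cyclins and CDK inhibitors among the further genes were counted without being named.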

Additional observations from a re-analysis of the deposited data

Results flagged for a closer look

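Groups of 4, 6 or 7 embryos were searched for a single embryo far from the rest. The 169 groups were members with a mean of at least 10 CPM, and the S level, G2/M level and number of G2/M genes per cell. Such an embryo was found in 5 groups. Chance alone gives about 1 in 20 such groups, and 5 of 169 is not above that share. In E3.5 MUT embryo 19, Pcna was 281.7 CPM (others 204.3 to 214.2 CPM) and Kif11 was 493.5 CPM (others 155.5 to 196.7 CPM). In E3.5 MUT embryo 10, Tyms was 444.4 CPM (others 262.6 to 279.1 CPM). Ccnb2 was 120.2 CPM in the EPI of embryo 1 (others 213.0 to 265.6 CPM), and Cdc20 was 400.0 CPM in the PrE of embryo 4 (others 714.1 to 893.7 CPM).

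For 14 members the difference between MUT and WT/HET embryos was not the same at E4.5 as at E3.5, by a test of that difference in edgeR with Benjamini-Hochberg adjustment. On the log2 scale the E4.5 difference minus the E3.5 difference was -3.46 for Ccne1, -2.61 for Rrm2, -1.64 for Tyms, -1.27 for Mcm2, -1.24 for Pcna and 1.06 for Mcm6 among the G1/S members. Among the G2/M members it was -2.61 for Aurkb, -2.19 for Ccna2, -2.0 for Cdc20, -1.96 for Cenpa, -1.87 for Ccnb2, -1.68 for Aurka, -1.60 for Ccnb1 and -1.14 for Birc5. The call of Ccnb2 (adjusted p = 0.0469) held in 3 of 19 fits without 1 embryo, and the other 13 calls in 17 to 19 of them.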

How the results depend on the processing

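No member that passed changed sign in any setting. The E3.5 differences in S and G2/M level per cell, -0.07 and -0.13, became 0.19 and 0.009 as the log2 of the summed FPKM. Of the members called, 5 at E3.5 became 3 with WT embryos as the only controls, and 14 in the comparison of stage effects became 8. For E4.5 MUT embryos, the 10 called against EPI became 19 with DESeq2, 23 with cells weighted equally and 0 with WT controls alone, the 5 against PrE became 14, 17 and 0, and the 8 from E3.5 to E4.5 became 16 with DESeq2 and 23 with cells weighted equally. The 9 between EPI and PrE became 17 with DESeq2, 16 with cells weighted equally and 0 with WT alone, which leaves 2 embryos of each lineage. The causes were not tested. With the embryo as a replicate block, 8 were called in place of 9. Gmnn (adjusted p = 0.0538) and Plk1 (0.0699) were then lost and Ccnd2 gained (-9.63, adjusted p = 0.0323), and the block changed no other member's call.

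With 1 embryo left out, the members called ranged from 4 to 6 at E3.5, 0 to 10 (MUT against EPI), 1 to 5 (MUT against PrE), 5 to 10 (EPI against PrE), 23 to 28 (EPI against E3.5), 13 to 17 (PrE against E3.5), 0 to 6 (E4.5 against E3.5 MUT) and 11 to 16 (stage effects). The lone MUT embryo left at E4.5 was assumed to vary like the other group. Shares of cells had 0 calls throughout, and the limits on these tests given above apply here too.

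The difference in S level per cell between E4.5 MUT and EPI, -1.75, was -1.36 over all 26 G1/S members and -1.21 as the log2 of the summed FPKM, and that to PrE, -1.14, was -0.45 on the latter scale. The G2/M differences of -2.84 and -3.11 became -1.98 and -2.09 there. With 2 E4.5 MUT embryos, a member that did not pass cannot be called equal between genotypes.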
